A study of Mus musculus with 6 samples.

Results

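The interferon-stimulated genes described here are 37 mouse genes chosen by symbol, and their rows were taken from the deposited table of read counts per gene. All 37 were among the 55453 genes of that table, and all 37 were among the 18192 genes that passed the filter on low counts. RNA came from the aortae of 2 homozygous and 3 heterozygous floxed Srf mice, where Srf is the gene of serum response factor, a transcription factor of contractile genes in smooth muscle. Every mouse carried the Itga8-CreERT2 driver, a tamoxifen-activated Cre recombinase under the control of an integrin gene of smooth muscle. Every mouse, heterozygous ones included, received tamoxifen at 33 mg/kg by intraperitoneal injection on 5 days in a row, and aortae were taken on day 10 after the last injection. The heterozygous mice are therefore controls for the Cre and for the drug, and they can still lose their single floxed allele in recombined cells. Aortae were stripped of adventitia and endothelium and frozen one by one, per the labels, which give no strain, sex or age. Of the 6 samples labelled, all but homozygous replicate 1 were used. According to the design text, an unnamed homozygous sample was left out as an outlier.

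Interferons are secreted proteins that cells release on sensing viral or misplaced nucleic acid. Type I interferons bind the Ifnar1 and Ifnar2 receptor chains, whose kinases Jak1 and Tyk2 activate Stat2 among other factors. A complex that holds Stat2 and Irf9 binds the interferon-stimulated response element in promoters, while the response to interferon gamma runs through the gamma-activated site. The genes switched on in this way sense viral RNA, block viral replication, load peptides for antigen presentation and damp the response itself. Most cells, vascular smooth muscle and macrophages among them, can respond, and a low tonic level of these transcripts is usual in healthy tissue.

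Library totals ranged from 26177821 to 34311855 counts. Srf stood at 45.0 and 38.6 CPM, the count scaled to a common library size with TMM factors, in homozygous libraries, against 56.1, 64.4 and 68.3 CPM in heterozygous libraries, a log2 fold change of -0.59 (SE 0.122, edgeR adjusted p = 0.115, DESeq2 adjusted p = 0.00371). Reads outside the floxed part still count towards the gene. On a first principal component with 51.6% of the variance, homozygous replicates 2 and 3 lay at -20.5 and -42.9. Heterozygous replicates 1 and 2 lay at -1.66 and 8.67, and heterozygous replicate 3 stood apart at 56.4. The 12 smooth muscle markers summed to 17303 and 16948 CPM in homozygous libraries, against 29142, 29870 and 28416 CPM in heterozygous libraries, so the labelled tissue was present in all 5. In such bulk RNA, fewer cells of a type and less RNA per cell cannot be told apart.

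The interferon-stimulated genes had mostly higher values in the homozygous libraries, by small amounts, and no single gene passed the test. The median log2 fold change over the 37 genes was 0.27 (homozygous over heterozygous), against -0.018 over all genes tested. Of the 37, 32 (86.5%, beside 47.2% of all genes) had a log2 fold change above 0 and 5 below 0, and the values ran from -0.16 to 0.64. The quasi-likelihood F test of edgeR, adjusted by the Benjamini-Hochberg method over all genes, called 0 of the 37 higher and 0 lower at a threshold of 0.05, as it did for 0% of all genes in either direction. The lowest edgeR adjusted p among the 37 was 0.227. Without adjustment, edgeR gave a p under 0.05 for 5 of the 37 higher (13.5%) and 0 lower, beside 9.04% of all genes higher and 6.75% lower. DESeq2 gave an adjusted p for 35 of the 37 and called 0 of them, while it called 3.35% of all genes higher and 2.62% lower, where all genes are those with an adjusted p. Its unadjusted p was under 0.05 for 3 of the 37 higher (8.11%) and 0 lower, beside 4.9% and 3.78% of the 30400 genes that it fitted.

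The groups were often separated, if by small margins. In 17 of the 37 genes (45.9%) both homozygous libraries were above all heterozygous libraries, beside 17.4% of all genes, and in 0 of the 37 were both below, beside 18.2% of all genes. The highest of the 5 libraries was a homozygous one in 30 of the 37 genes (81.1%), beside 38.6% of all genes. That count was made up of 15 genes in each of homozygous replicates 2 and 3, beside 17.9% and 20.8% of all genes. The lowest was heterozygous replicate 1 in 18 genes, replicate 2 in 6 and replicate 3 in 11, beside 14.2%, 17.6% and 25.9% of all genes. These genes can share an inducer and a cell source, so the counts do not stand for independent observations.

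The mean of the 37 genes in each library showed the same pattern. It was 3.24 and 3.22 log2 CPM in homozygous replicates 2 and 3, against 2.85, 2.97 and 3.01 log2 CPM in heterozygous replicates 1, 2 and 3. The homozygous libraries lay close together above all 3 heterozygous libraries, whose own range was wider. The group means were 3.23 ± 0.0140 (SD, n = 2) and 2.94 ± 0.0841 log2 CPM (SD, n = 3), a difference of 0.28. Over all genes tested the library means were 3.30 and 3.29 log2 CPM in homozygous libraries, against 3.26, 3.24 and 3.23 in heterozygous libraries. Every pairing of a homozygous with a heterozygous library gave a median difference over the 37 genes above 0, from 0.16 (homozygous replicate 2 minus heterozygous replicate 3) to 0.36 (homozygous replicate 3 minus heterozygous replicate 1). Within groups the median difference was -0.027 between homozygous replicates 3 and 2, and it ran from -0.084 to 0.029 between heterozygous libraries.

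**Figure D1:**
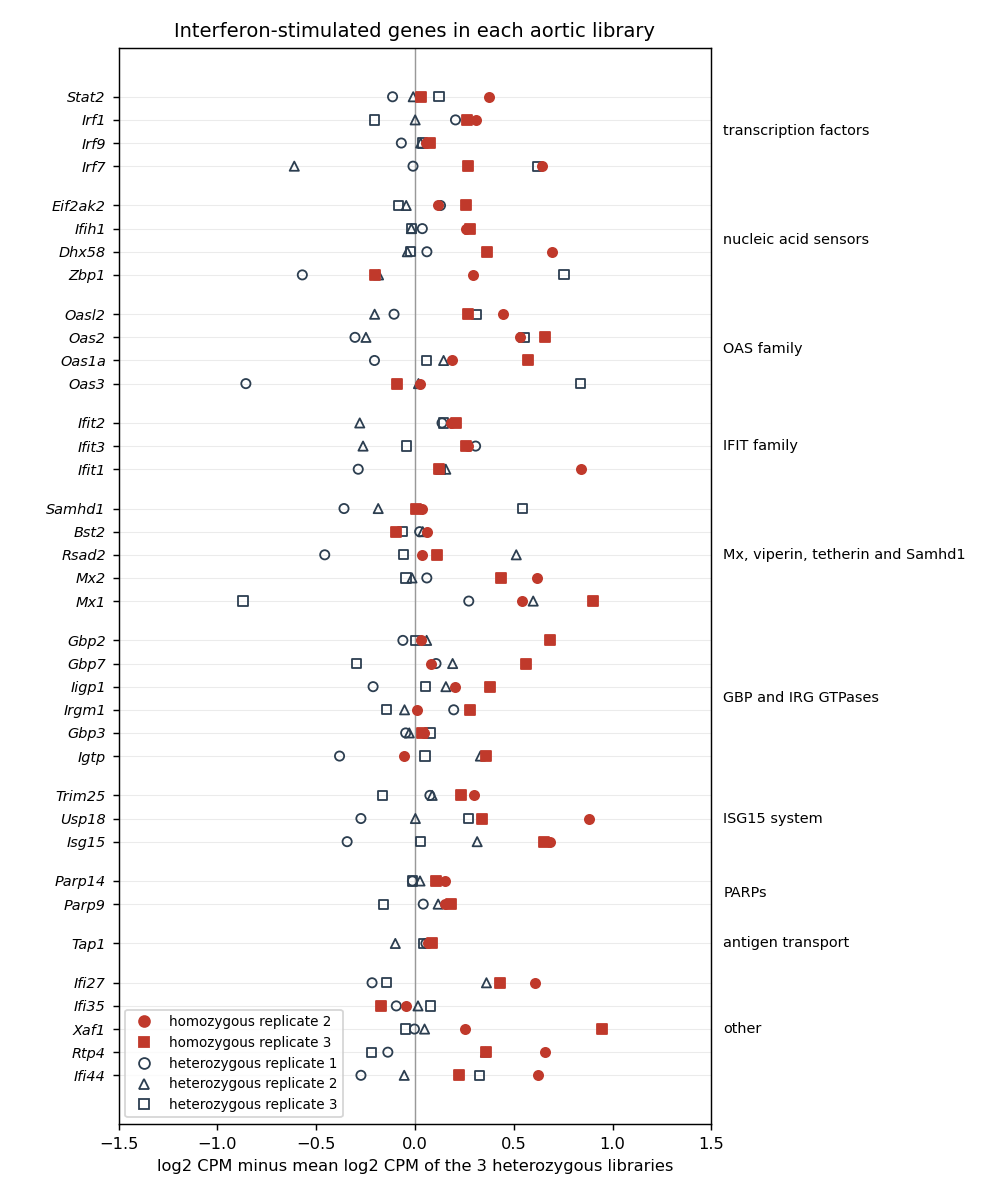
Each interferon-stimulated gene in each library, as log2 CPM minus the mean log2 CPM of the 3 heterozygous libraries (x axis), with genes grouped by role (y axis); filled red symbols are homozygous and open dark symbols heterozygous libraries. Red symbols lie to the right of every open symbol in 17 of the 37 genes and to the left of every open symbol in 0.

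**Figure D2:**
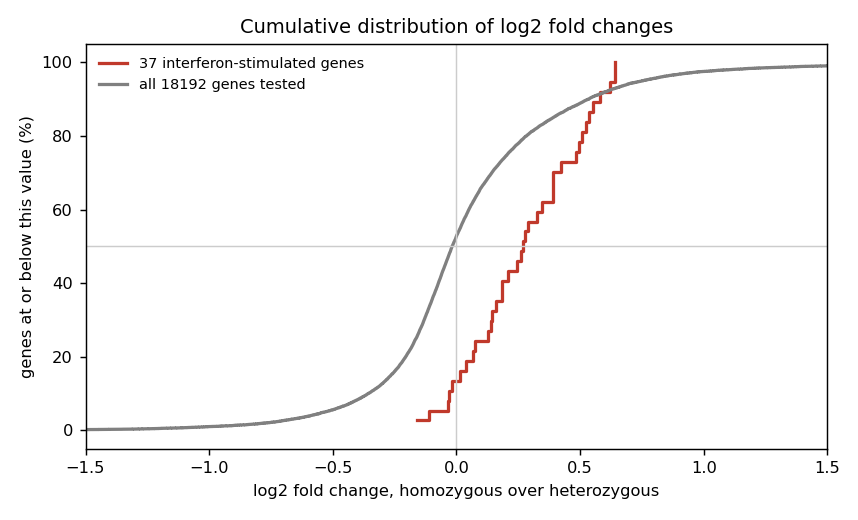
Cumulative share of genes (y axis, %) at or below each log2 fold change (x axis, homozygous over heterozygous, shown from -1.5 to 1.5) for the 37 interferon-stimulated genes and for all 18192 genes tested. The curve of the 37 genes crosses 50% at 0.27 and that of all genes at -0.018, while no interferon-stimulated gene lies beyond 0.64.

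Promoters were read as a description only. The genes were listed as interferon-stimulated, so the share that holds a response element says nothing about these libraries. RefSeq promoters on GRCm38.p6 were at hand for 26 of the 37 genes, and the 250 bases before the start were searched on both strands for the core of the interferon-stimulated response element, which is GAAA, any 2 bases (NN) and GAAA again. It occurred in 13 of the 26 genes (50%), beside 3.21% of the tested genes that have a promoter in the table. The core of the gamma-activated site, TTCNNNGAA, reads the same on both strands and occurred in 8 of the 26 (30.8%), beside 7.16% of the tested genes. The log2 fold change had a median of 0.21 over the 13 genes with the core of the response element and of 0.26 over the 13 without it, and 11 genes of each set were above 0. Stretches of 40 bases are shown for 5 genes described below that hold the element upstream of the annotated gene. They run 5′ to 3′ on the gene's strand, with every base of a match to that core, in either orientation, in capitals:
Isg15: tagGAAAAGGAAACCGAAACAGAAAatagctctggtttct
Bst2: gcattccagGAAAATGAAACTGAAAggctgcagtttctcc
Ifit3: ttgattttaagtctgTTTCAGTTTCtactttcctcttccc
Gbp7: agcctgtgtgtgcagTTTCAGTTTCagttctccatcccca
Stat2: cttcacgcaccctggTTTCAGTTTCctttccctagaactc

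The Isg15 stretch (chr4:156200860-156200899, minus strand) holds 3 overlapping matches, the nearest 56 bases from the start. The Bst2 stretch (chr8:71537572-71537611, minus strand) holds 2 overlapping matches, the nearest 114 bases from the start. Those of Ifit3 (chr19:34583392-34583431), Gbp7 (chr3:142530268-142530307) and Stat2 (chr10:128270261-128270300), all on the plus strand, hold 1 match each in the reverse orientation, at 112, 43 and 212 bases. A match describes the letters only. Isg15 and Bst2, which both hold overlapping matches, had log2 fold changes of 0.64 and -0.02.

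Transcription factors of the pathway were moderately abundant and had higher group means in the homozygous libraries. Irf1, a factor induced by interferon gamma, stood at 33.8 and 32.7 CPM in homozygous libraries, against 31.4, 27.3 and 23.6 CPM in heterozygous libraries. The groups did not overlap, and the log2 fold change was 0.28 (SE 0.131, edgeR adjusted p = 0.370). Stat2, which acts in a complex with Irf9, stood at 36.3 and 28.7 CPM in homozygous libraries, against 25.95, 27.9 and 30.6 CPM in heterozygous libraries, and its groups overlapped. Its log2 fold change of 0.21 (SE 0.131) rested on homozygous replicate 2, without which it was 0.03. Irf9, the DNA-binding partner, was separated between the groups by a narrow margin, with 20.1 and 20.4 CPM in homozygous libraries and 18.5 to 19.9 CPM in heterozygous libraries, a log2 fold change of 0.07. Irf7, which amplifies type I interferon production, overlapped between groups, with 5.66 and 4.36 CPM in homozygous libraries and 3.60, 2.37 and 5.57 CPM in heterozygous libraries.

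Among the sensors of foreign nucleic acid, the helicases separated the groups and the others did not. Ifih1, which encodes the double-stranded RNA sensor MDA5 (GRCm38 chromosome 2, 62595798 to 62646255), stood at 17.3 and 17.5 CPM in homozygous libraries, against 14.9, 14.3 and 14.3 CPM in heterozygous libraries. Both groups were tight, and the log2 fold change was 0.27 (SE 0.0979, unadjusted p = 0.0291, edgeR adjusted p = 0.258), with values from 0.26 to 0.29 when any library was left out. Dhx58, which encodes LGP2, a helicase that modulates that sensor, stood at 3.00 and 2.40 CPM in homozygous libraries, against 1.94, 1.81 and 1.83 CPM in heterozygous libraries. Its log2 fold change was 0.54 (SE 0.214, unadjusted p = 0.0408, edgeR adjusted p = 0.290), and 0.36 without homozygous replicate 2. Eif2ak2, the kinase PKR that halts translation on binding double-stranded RNA, overlapped, with 28.0 and 30.9 CPM in homozygous libraries and 28.3, 25.1 and 24.4 CPM in heterozygous libraries. Zbp1, a sensor of Z-form nucleic acid, was highest in heterozygous replicate 3 at 2.39 CPM, above the 1.73 and 1.23 CPM of the homozygous libraries, and its log2 fold change of -0.03 turned to 0.44 without that replicate.

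The OAS family makes a messenger that switches on RNA decay, and in 3 of its 4 genes heterozygous replicate 3 was the highest heterozygous library. Oas2 stood at 5.66 and 6.17 CPM in homozygous libraries, against 3.17, 3.29 and 5.73 CPM in heterozygous libraries. Oasl2, a family member with ubiquitin-like domains, stood at 8.66 and 7.65 CPM in homozygous libraries, against 5.90, 5.52 and 7.88 CPM in heterozygous libraries. For both, heterozygous replicate 3 lay at the homozygous level and the other heterozygous libraries lay below it, with log2 fold changes of 0.55 (SE 0.280) and 0.35 (SE 0.192). Without that replicate they were 0.89 and 0.53. Oas1a, at 1.13 and 1.47 CPM in homozygous and 0.861 to 1.10 CPM in heterozygous libraries, did not overlap between groups, but 40.9% of its 100-base words also occur in other transcripts, chiefly of Oas1g, so its counts are uncertain. Oas3 was below 1 CPM in every library, with a lowest count of 10, and gave -0.16 (SE 0.502).

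The IFIT genes, whose proteins bind viral RNA ends, lie side by side on chromosome 19 and gave small differences. Ifit2, the most abundant, stood at 27.9 and 28.4 CPM in homozygous libraries, against 27.0, 20.3 and 27.1 CPM in heterozygous libraries. Its groups were apart by less than 1 CPM, and heterozygous replicate 2 was the low one. Ifit3 stood at 9.05 and 8.97 CPM in homozygous libraries, against 9.29, 6.26 and 7.28 CPM in heterozygous libraries, with overlap between the groups. A share of 31.7% of its 100-base words also occurs in other transcripts, chiefly of Ifit3b. Ifit1 was at 4.10 CPM in homozygous replicate 2 and at 2.49 CPM in replicate 3, against 1.88 to 2.55 CPM in heterozygous libraries, so its log2 fold change of 0.51 (SE 0.279) was 0.11 without homozygous replicate 2.

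The antiviral effectors of the Mx, viperin, tetherin and Samhd1 group divided. Samhd1, which hydrolyses the building blocks of DNA, stood at 63.6 and 62.2 CPM in homozygous libraries, against 48.3, 54.5 and 90.5 CPM in heterozygous libraries. The homozygous values lay inside the heterozygous range, whose top was replicate 3, and the log2 fold change of -0.03 was 0.31 without it. Bst2, tetherin, which holds budding virus at the cell surface, stood at 13.8 and 12.3 CPM in homozygous libraries, against 13.4, 13.6 and 12.7 CPM in heterozygous libraries. Its log2 fold change was -0.02, with an approximate 95% interval from -0.29 to 0.25. Rsad2, viperin, stood at 4.28 and 4.52 CPM in homozygous libraries and 3.04, 5.96 and 4.02 CPM in heterozygous libraries, and the sign of its log2 fold change depended on the library left out.

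The Mx genes, dynamin-like GTPases that trap viral particles, were low in abundance. Mx2 stood at 2.90 and 2.55 CPM in homozygous libraries, against 1.97, 1.87 and 1.83 CPM in heterozygous libraries, with no overlap and a log2 fold change of 0.53 (SE 0.203, unadjusted p = 0.0358, edgeR adjusted p = 0.277). Mx1 stood at 0.742 and 0.952 CPM in homozygous libraries, against 0.615, 0.771 and 0.278 CPM in heterozygous libraries. Its log2 fold change of 0.58 (SE 0.427) rested on few reads, with a lowest count of 7 in heterozygous replicate 3, and was 0.31 without that replicate.

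The GBP and IRG GTPases, which interferon gamma induces and which attack membranes around intracellular microbes, were divided, and in Gbp2 and Gbp7 homozygous replicate 3 alone was high. Gbp2 stood at 28.6 and 44.9 CPM in homozygous replicates 2 and 3, against 26.8, 29.2 and 28.0 CPM in heterozygous libraries. Gbp7 stood at 22.2 and 31.0 CPM in homozygous replicates 2 and 3, against 22.6, 24.0 and 17.1 CPM in heterozygous libraries. In both genes homozygous replicate 2 lay within the heterozygous range and replicate 3 above it, and the log2 fold changes of 0.39 (SE 0.181) and 0.32 (SE 0.191) were 0.03 and 0.06 without replicate 3. The 6 genes of the group summed to 109.9 and 144 CPM in homozygous replicates 2 and 3, against 102, 113 and 102 CPM in heterozygous libraries. Gbp2, Gbp3 and Gbp7 are neighbours on chromosome 3, between 142530342 and 142638008 on GRCm38, yet Gbp3 stood at 12.4 and 12.3 CPM in homozygous libraries and 11.7 to 12.7 CPM in heterozygous libraries. Iigp1 was the 1 gene of the group whose libraries did not overlap, with 22.9 and 25.9 CPM in homozygous and 17.2 to 22.2 CPM in heterozygous libraries. Irgm1 and Igtp overlapped, with log2 fold changes of 0.14 each, which were 0.00092 and -0.084 without homozygous replicate 3.

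The ISG15 system was the role group with the highest median, 0.62 over 3 genes, and all 3 were separated between the groups. Isg15, a ubiquitin-like protein attached to other proteins during the response (chromosome 4, 156199424 to 156200818), stood at 1.38 and 1.35 CPM in homozygous libraries, against 0.677, 1.07 and 0.875 CPM in heterozygous libraries. Its counts were only 39 and 44 in homozygous and 22, 36 and 22 in heterozygous libraries, and the log2 fold change was 0.64 (SE 0.288, edgeR adjusted p = 0.343). Usp18, the protease that removes Isg15 and blocks the receptor, stood at 3.22 and 2.21 CPM in homozygous libraries, against 1.45, 1.75 and 2.11 CPM in heterozygous libraries. That difference of 0.62 (SE 0.270) was 0.33 without homozygous replicate 2. Trim25, a ubiquitin ligase of the RNA-sensing pathway, was more abundant, at 22.2 and 21.2 CPM in homozygous libraries, against 19.0, 19.2 and 16.1 CPM in heterozygous libraries. It gave 0.26 (SE 0.115, edgeR adjusted p = 0.337).

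Parp9, Parp14 and Tap1 were steady genes with narrow errors. Parp14, a mono-ADP-ribosyltransferase, stood at 53.6 and 52.0 CPM in homozygous libraries, against 47.8, 49.1 and 47.8 CPM in heterozygous libraries. The groups did not overlap, but the log2 fold change was only 0.13, with an approximate 95% interval from -0.06 to 0.32. Parp9, its neighbour on chromosome 16, stood at 25.4 and 25.99 CPM in homozygous libraries, against 23.6, 24.8 and 20.5 CPM in heterozygous libraries, a log2 fold change of 0.16 (SE 0.112). Tap1, which carries peptides into the endoplasmic reticulum for class I molecules, stood at 15.8 and 16.0 CPM in homozygous libraries, against 15.7, 14.1 and 15.6 CPM in heterozygous libraries. Its difference of 0.08 had an approximate 95% interval from -0.17 to 0.33.

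The lowest p-values among the 37 genes belonged to Xaf1 and Ifi27. Xaf1, which encodes a protein that binds the apoptosis inhibitor XIAP (chromosome 11, 72301629 to 72313733), stood at 6.89 and 11.1 CPM in homozygous replicates 2 and 3, against 5.78, 5.99 and 5.61 CPM in heterozygous libraries. The heterozygous values were tight and both homozygous values were above them, with a log2 fold change of 0.64 (SE 0.215, unadjusted p = 0.0204, edgeR adjusted p = 0.227). Without homozygous replicate 3 it was 0.25, and without homozygous replicate 2 it was 0.94. Ifi27, a small mitochondrial and membrane protein (chromosome 12, 103434211 to 103440239), stood at 197 and 174 CPM in homozygous libraries, against 111, 166 and 117 CPM in heterozygous libraries. It was the most abundant of the 37 genes, and heterozygous replicate 2 came close to the homozygous level, giving 0.50 (SE 0.181, unadjusted p = 0.0288, edgeR adjusted p = 0.257).

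Of the remaining genes, Rtp4 and Ifi44 had higher means in the homozygous group and Ifi35 a lower one. Rtp4, a chaperone of receptor trafficking, stood at 3.36 and 2.73 CPM in homozygous libraries, against 1.94, 2.73 and 1.83 CPM in heterozygous libraries, so homozygous replicate 3 and heterozygous replicate 2 were nearly equal. Ifi44 stood at 1.66 and 1.26 CPM in homozygous libraries, against 0.892, 1.04 and 1.35 CPM in heterozygous libraries. Ifi35 stood at 17.4 and 15.9 CPM in homozygous libraries, against 16.8, 18.1 and 18.9 CPM in heterozygous libraries, with a log2 fold change of -0.11 (SE 0.109). An antisense gene on the other strand, Gm11626, shares 16.8% of the exonic bases of Ifi35, and the strand setting of the counting is not given in the sources used here.

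Levels per kilobase of exon set the genes in order. Ifi27 averaged 126 CPM per kilobase in homozygous and 89.4 in heterozygous libraries. In homozygous libraries the next were Gbp2 and Bst2, with Gbp2 at 14.6 and 11.1, Bst2 at 14.5 and 14.6, Ifi35 at 9.63 and 10.4 and Irf1 at 8.36 and 6.90 CPM per kilobase, homozygous then heterozygous. Isg15 averaged 1.81 and 1.15 and Oas3, the lowest, 0.0769 and 0.0880 CPM per kilobase. The homozygous libraries of Gbp2 lay on either side of those of Bst2 on this scale, so their order there is not set beyond the spread, while in every heterozygous library Bst2 was above Gbp2.

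**Figure D3:**
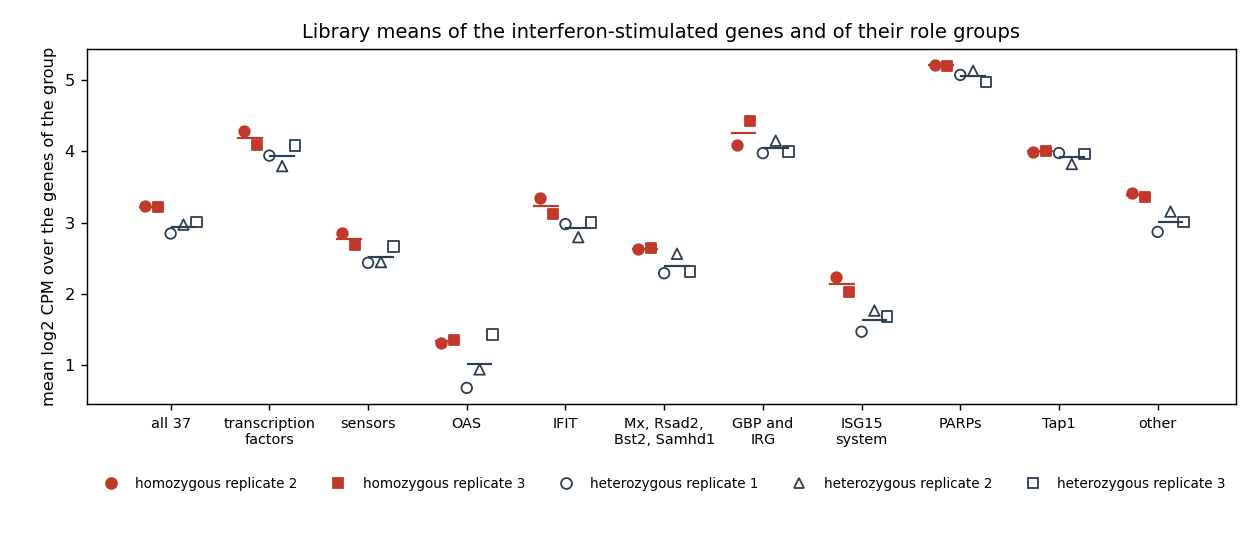
Mean log2 CPM (y axis) of all 37 interferon-stimulated genes and of each role group (x axis) in the 2 homozygous libraries (filled red) and the 3 heterozygous libraries (open), with a line at each group mean. Over all 37 genes the homozygous libraries stand at 3.24 and 3.22, above the heterozygous libraries at 2.85 to 3.01, while in the OAS family heterozygous replicate 3 stands highest at 1.44 and among the GBP and IRG genes homozygous replicate 3 stands highest at 4.42.

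The interferons themselves were not detectable at this depth. Over 20 interferon genes, 3 reads were counted in all 5 libraries together, 1 each on Ifna2 and Ifne in homozygous replicate 2 and 1 on Ifna11 in heterozygous replicate 3. For a gene with 0 counts, 3 counts would have been 0.0874 to 0.115 CPM, depending on the library, a limit that covers counting error only. Ifnb1 and Ifng were at 0 in every library.

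Kinases of the receptors did not pass the test with either tool. Jak1, which serves both interferon types, stood at 127 and 138 CPM in homozygous libraries, against 126, 129 and 126 CPM in heterozygous libraries. Jak2, a kinase of the interferon gamma receptor, stood at 71.3 and 72.9 CPM in homozygous libraries, against 84.9, 85.1 and 84.3 CPM in heterozygous libraries, a log2 fold change of -0.23 (SE 0.0822, edgeR adjusted p = 0.245).

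Sensors and adaptors upstream of interferon, and the restraints on the pathway, gave 0 calls with either tool among 14 and 9 genes tested. Their median log2 fold changes were 0.12 and -0.12. At an unadjusted p under 0.05, edgeR gave 1 higher and 1 lower gene in each list, beside 9.04% and 6.75% of all genes. Irf3, the factor that starts interferon transcription, stood at 49.1 and 45.0 CPM in homozygous libraries, against 55.1, 53.4 and 63.8 CPM in heterozygous libraries, a log2 fold change of -0.29 (SE 0.110). Ptpn6, a phosphatase of blood cells, stood at 4.81 and 5.28 CPM in homozygous libraries, against 3.01, 3.35 and 3.90 CPM in heterozygous libraries, a log2 fold change of 0.56 (SE 0.186). The most abundant others were Traf3 at -0.13, Adar at -0.06 and Ptpn1 at -0.12, all with an SE below 0.1.

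A wider list of 56 tested interferon-stimulated genes outside the 37 had a median of 0.14. At an unadjusted p under 0.05, edgeR gave 12 higher and 0 lower, beside 9.04% and 6.75% of all genes. It called 0 when adjusted, and DESeq2 called 3 of 51 higher, beside 3.35% of all genes. Lgals3bp, a secreted glycoprotein with the lowest p, stood at 39.9 and 37.9 CPM in homozygous libraries, against 23.9, 23.5 and 28.2 CPM in heterozygous libraries, a log2 fold change of 0.63 (SE 0.111, edgeR adjusted p = 0.104, DESeq2 adjusted p = 0.000712). The other genes that DESeq2 called, named after their values were seen, were Slfn5 at 0.46 (DESeq2 adjusted p = 0.0161) and Ddx60 at 0.68 (DESeq2 adjusted p = 0.00610). Rnf213 stood at 209 and 191 CPM in homozygous libraries, against 166, 163 and 176 CPM in heterozygous libraries, a log2 fold change of 0.25. Trafd1, next to it in abundance, gave -0.07.

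Class I antigen presentation and the inducible chemokines also gave 0 calls by edgeR or DESeq2, although DESeq2 gave an adjusted p for only 1 chemokine. The 15 antigen presentation genes had a median of 0.08. At an unadjusted p under 0.05, edgeR gave 3 higher and 0 lower, beside 9.04% and 6.75% of all genes. Psmb8, a subunit of the immunoproteasome, stood at 10.9 and 10.4 CPM in homozygous libraries, against 7.53, 7.95 and 8.67 CPM in heterozygous libraries, a log2 fold change of 0.41 (SE 0.129). The endoplasmic reticulum chaperones Calr and Canx gave -0.01 and -0.08. Of 6 chemokines tested, Ccl2, an attractant of monocytes, stood at 1.31 and 0.799 CPM in homozygous libraries, against 0.400, 0.267 and 0.557 CPM in heterozygous libraries, a log2 fold change of 1.38 (SE 0.406, edgeR adjusted p = 0.184). Cxcl9, induced by interferon gamma, stood at 2.09 and 3.35 CPM in homozygous libraries, against 1.75, 1.93 and 1.63 CPM in heterozygous libraries.

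Most macrophage and general leukocyte markers had log2 fold changes above 0, while erythrocyte markers, given below, were lower in the homozygous libraries. The 12 macrophage markers summed to 586 and 736 CPM in homozygous libraries, against 493, 473 and 660 CPM in heterozygous libraries, with none at 0 in any library. These sums overlapped, as heterozygous replicate 3 was above homozygous replicate 2. At an unadjusted p under 0.05, edgeR gave 8 of the 12 higher and 1 lower, beside 9.04% and 6.75% of all genes. The lower one was Mertk, at 105 and 108 CPM in homozygous libraries and 146, 172 and 244 CPM in heterozygous libraries. DESeq2 called 5 higher and 1 lower, beside 3.35% and 2.62% of all genes. The 5 general leukocyte markers summed to 70.7 and 93.7 CPM in homozygous libraries, against 50.5, 50.3 and 56.5 CPM in heterozygous libraries, and Lcp1, the most abundant, gave 0.77 (SE 0.131, edgeR adjusted p = 0.104). Both sums were highest in homozygous replicate 3, the library with the highest Gbp2, Gbp7 and Xaf1. Homozygous replicates 2 and 3 were each the highest library for 15 interferon-stimulated genes. The mean of the interferon-stimulated genes was 3.24 log2 CPM in homozygous replicate 2 and 3.22 log2 CPM in homozygous replicate 3. The part of macrophages and other leukocytes in the values of the interferon-stimulated genes was not tested.

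Other immune cells left few reads. The 6 T cell markers summed to 0.742 and 1.81 CPM in homozygous libraries, against 1.14, 1.25 and 1.11 CPM in heterozygous libraries. NK cell markers summed to 0.495 and 0.706 CPM in homozygous libraries, against 0.431, 0.474 and 0.477 CPM in heterozygous libraries. These defining genes were near 0 in both groups, and the T cell sums overlapped. Dendritic cell markers summed to 44.8 and 38.9 CPM in homozygous libraries, against 34.9, 37.0 and 34.7 CPM in heterozygous libraries, most of it Zbtb46, which endothelium also expresses.

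**Figure D4:**
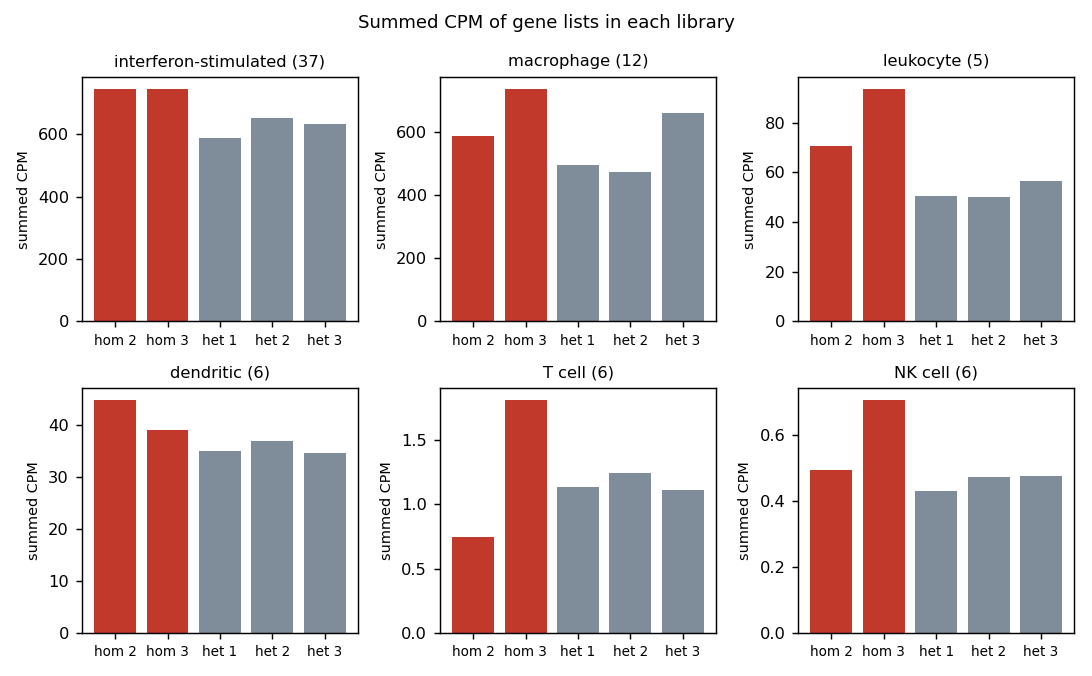
Summed CPM (y axis, from 0, with its own scale in each panel) of the interferon-stimulated genes and of 5 immune cell marker lists in each library (x axis; red, homozygous; grey, heterozygous), with the number of genes listed in the titles. The interferon-stimulated genes sum to 746 and 744 CPM in homozygous libraries and to 588, 653 and 633 CPM in heterozygous libraries, and T and NK cell markers stay under 2 CPM.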

How the data were processed

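Poly(A) RNA libraries of 5 aortae were used. The deposited table holds raw counts per gene. The submitters' processing notes name featureCounts (Subread 1.6.4), STAR 2.7.0f, fastp 0.20.0 and the build GRCm38. No source used here gives the annotation release or the strand setting. Genes were filtered with filterByExpr, scaled by TMM and tested on group alone with edgeR 4.0.16 (R 4.3.3), Benjamini-Hochberg adjustment over 18192 genes and 0.05 as the threshold. Biological variation between replicates was 15.8% (common coefficient). Log2 CPM used a prior count of 2, the SE is the log2 fold change divided by the root of F, and 95% intervals follow from it. Coordinates, exon lengths and shared words came from GENCODE mouse release 21 on GRCm38, and 54510 of the 55453 symbols are among its names. Apart from Oas1a, Ifit3, Gbp7 (10.0%) and Rtp4 (9.28%), no gene shared over 5.57% of its 100-base words.

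The 37 genes and all lists were chosen with earlier results of these data known. Values in every library are given for the 2 most abundant genes of each role group and the 6 largest absolute changes. The other 14 were added with library values, with a range or bound, or, as for Irgm1 and Igtp, with log2 fold changes alone. Of pathway lists, the 2 most abundant genes and the lowest p are named. For the receptors and kinases only the kinases are given, and the rest of that list is not reported here. Promoter stretches exclude those that overlap the annotated gene. The labels do not say that replicate numbers mark a shared litter or day. All pairs of libraries differed by more than sampling noise. The p-values refer to the spread between 5 mice. Alternatives were other size factors, DESeq2 1.42.0, voom in limma 3.58.1, other filters, a block for the replicate, a label-number term and each library left out.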

Additional observations from a re-analysis of the deposited data

How the results depend on the processing

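The median of the interferon-stimulated genes kept its sign under all 14 alternatives, with 30 to 35 genes above 0. It was 0.16 with a term for the label numbers, a fit that compares only homozygous replicate 2 with heterozygous replicate 3, and 0.20 to 0.31 with each library left out. Where a single homozygous library remained, it was assumed to vary like the others. Under the settings added after seeing the data, the difference of library means was 0.24 to 0.32. Genes whose groups did not overlap then numbered 17 to 24 of the 37. The share over all genes was 17.4% in the main fit and reached 28.5% under these settings. It is not given for each setting, so a count above 17 is not read as a stronger result. Without the low-count filter edgeR called 2 of the 37 higher, Ifi27 (adjusted p = 0.0233) and Xaf1 (adjusted p = 0.0471), beside 982 of 30400 genes. That fit gave 10 of the 37 higher at an unadjusted p under 0.05 (27.0%, beside 7.70% of all its genes). DESeq2 gave 3 such genes (8.11%, beside 4.9%), the replicate block 3 (8.11%, beside 8.18%), and leaving out a library 3 to 7 (8.11% to 18.9%, beside 4.85% to 9.59%). Without heterozygous replicate 1 the share, 8.11%, was below the 8.60% of all genes. The number term gave 1 lower, Samhd1 at -0.51. Over all genes, higher and lower calls were 524 and 411 by DESeq2, 982 and 432 without the filter, 8 and 1 with the number term, 3 and 2 with the replicate block, and 0 to 139 and 0 to 9 with a library left out (139 and 9 without heterozygous replicate 2). The voom fit called 1 lower. The replicate 2 minus 3 differences of the groups correlated at -0.13 across genes. That value rests on a single difference per group, so whether the numbers pair these libraries stays unknown. A crossed block, added after seeing the data, called 0.

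Single-gene signs held for 29 of the 37 and turned for 8, of which 7 lay between -0.16 and 0.14 and Oas2 at 0.55. Rsad2 was -0.16 with either block and Igtp -0.039 and -0.037. Under the number term Oas2 was -0.018, Bst2 0.12, Gbp3 -0.033 and Igtp -0.11. Bst2 was 0.0012 with upper-quartile factors, and voom gave Zbp1 0.076, Oas3 0.0046 and Samhd1 0.024. With a library left out, Rsad2 ran from -0.19 to 0.34, Igtp from -0.084 to 0.34, Bst2 from -0.10 to 0.061, Zbp1 from -0.30 to 0.44, Oas3 from -0.49 to 0.33 and Samhd1 from -0.20 to 0.31. The cause was not tested. With all 300 bases of the promoter table, 57.7% of the genes held the response element core and 34.6% TTCNNNGAA. Genes under 1 CPM on average, Mx1 and Oas3, are limited by depth.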

Other observations

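Marker lists of other tissue also differed between libraries. Adipocyte markers summed to 5583 and 6009 CPM in homozygous libraries, against 3489, 4613 and 3829 CPM in heterozygous libraries. Of the 12, 9 were higher at an unadjusted edgeR p under 0.05, beside 9.04% of all genes. DESeq2 called 6 of them higher, beside 3.35% of all genes. Brown adipocyte markers summed to 1129 and 1050 CPM in homozygous libraries, against 369, 716 and 281 CPM in heterozygous libraries. Skeletal muscle markers summed to 891 and 2428 CPM in homozygous libraries, against 611, 289 and 10.8 CPM in heterozygous libraries. Endothelial markers, which remained in all libraries, summed to 1319 and 524 CPM in homozygous libraries, against 933, 1194 and 896 CPM in heterozygous libraries, so the lowest sum was in homozygous replicate 3. Adventitial fibroblast markers summed to 12128 and 12429 CPM in homozygous libraries, against 13152, 12766 and 9139 CPM in heterozygous libraries. Erythrocyte markers summed to 23.9 and 28.9 CPM in homozygous libraries, against 37.9, 297 and 87.6 CPM in heterozygous libraries. Neutrophil markers summed to 3.29 and 2.24 CPM in homozygous libraries, against 1.48, 1.36 and 12.3 CPM in heterozygous libraries, B cell markers to 0.460 and 1.01 CPM against 1.32, 0.563 and 0.477 CPM, and plasmacytoid dendritic markers to 6.04 and 16.7 CPM against 6.52, 2.76 and 1.07 CPM, most of it Cox6a2, which muscle also expresses.

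Trex1, an exonuclease that restrains interferon induction, is listed at 0 in every library. On GRCm38 all of its exonic bases also belong to Atrip on the same strand, so its counts say nothing about its level.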
